A study of Homo sapiens with 6 samples.

Results

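The 10 genes described here make, use and break down arginine and the polyamines. Their symbols were set as a list, and the probeset of each gene was selected by its measured value, the highest mean log2 value over all 6 arrays. Between them the 10 genes had 32 probesets (sets of short probes on the array that read 1 gene), of 44988 such probesets for 18132 genes in all. The arrays were Affymetrix Human PrimeView arrays, and the values are log2 values per probeset as the authors deposited them. MDA-MB-231, a long-established line of human triple-negative breast cancer, was grown as tumors under the skin of NOD/SCID mice, and total RNA was taken from cells extracted from these tumors. Such mice lack B and T lymphocytes and keep macrophages and neutrophils. The mice were 4 to 6 weeks old, the labels do not state their sex, and both flanks were injected. The Epi group (3 arrays) received epinephrine under the skin at 2 mg/kg/d, injected 7 days before the tumor cells, and the PBS group (3 arrays) received PBS in the same volume. All tumors came from 1 cell line. The labels call the samples biological replicates without saying whether they came from separate mice, so p-values measure the spread between these tumors.

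Arginine is made from citrulline by ASS1 and ASL and is split by arginase into urea and ornithine. ARG1 is the cytosolic arginase of liver and of some myeloid cells, and ARG2 is the mitochondrial arginase of many other tissues. Ornithine is decarboxylated by ODC1 to putrescine, which SRM turns into spermidine with the aminopropyl group that AMD1 supplies. Antizyme (OAZ1) sends ODC1 to the proteasome, SAT1 acetylates polyamines for export or breakdown, and SMOX oxidizes spermine. Tumors are known for high polyamine synthesis, and the transcription factor MYC is known to raise ODC1. Epinephrine binds β-adrenergic receptors, which raise cAMP. CREB, the transcription factor that this pathway activates, binds the cAMP response element TGACGTCA.

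The promoter of ARG2 is shown because ARG2 had the lowest Epi minus PBS value of the 10 genes and the only such element among them, that of SAT1 because it had the highest value, and that of ODC1 for its MYC-type E-boxes. Each is 300 bases of RefSeq sequence (build GRCh38.p14), from 250 before to 50 after a start site. Capitals mark the element TGACGTCA in ARG2, its half-site TGACG or the reverse complement in SAT1, and the E-box CACGTG in ODC1. The windows are chr14:67619670-67619969 (plus strand), chrX:23782923-23783222 (plus strand) and chr2:10447963-10448262 (minus strand, the second of the 2 start sites listed for ODC1).
ARG2: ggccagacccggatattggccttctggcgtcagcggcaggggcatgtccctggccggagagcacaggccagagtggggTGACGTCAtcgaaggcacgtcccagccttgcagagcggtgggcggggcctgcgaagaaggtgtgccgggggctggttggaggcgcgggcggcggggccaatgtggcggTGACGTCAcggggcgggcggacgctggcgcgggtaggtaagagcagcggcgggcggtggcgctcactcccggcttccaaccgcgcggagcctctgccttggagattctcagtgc
SAT1: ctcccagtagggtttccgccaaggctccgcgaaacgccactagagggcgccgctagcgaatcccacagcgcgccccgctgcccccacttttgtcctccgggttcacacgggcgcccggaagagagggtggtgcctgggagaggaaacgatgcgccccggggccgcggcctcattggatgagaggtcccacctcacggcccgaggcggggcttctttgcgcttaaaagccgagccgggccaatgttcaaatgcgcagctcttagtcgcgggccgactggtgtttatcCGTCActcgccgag
ODC1: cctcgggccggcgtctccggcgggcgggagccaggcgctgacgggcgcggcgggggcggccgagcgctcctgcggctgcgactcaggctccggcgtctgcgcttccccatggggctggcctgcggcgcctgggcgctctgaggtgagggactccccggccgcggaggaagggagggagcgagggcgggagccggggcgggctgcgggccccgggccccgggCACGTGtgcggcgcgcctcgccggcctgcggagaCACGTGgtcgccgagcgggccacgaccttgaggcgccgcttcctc

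Windows were found for 9 of the 10 genes (13 windows), SMOX being the exception. The window of ARG2 held 2 copies of TGACGTCA, which begin at -172 and -64 relative to the start site, and no other window of the 10 genes held a copy. At least 1 copy was in 1.85% of all 35116 windows of this length, and 2 or more were in 21 of them (0.0598%). The half-site TGACG on either strand, which every full element contains, was in windows of 5 genes (ARG2, ODC1, AMD1, SAT1 and ASL). It was in 24.6% of all windows and in windows of 7761 of all 27305 genes. In SAT1 it begins at 37. The E-box CACGTG was in windows of ODC1, SRM and ASS1, in 7.26% of all windows and in windows of 2396 of the 27305 genes. Both copies in ODC1 lie in the window shown, at -29 and 6. These are matches of letters and not measured sites.

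Tumors of epinephrine-treated mice had less ARG2 transcript than those of PBS-treated mice. In the order of replicates 1 to 3, which all lists of values below keep, the log2 values of ARG2 were 6.24, 7.63 and 6.91 with PBS and 5.36, 6.36 and 5.12 with Epi. The groups overlapped at 1 point, as Epi replicate 2 lay slightly above PBS replicate 1. The means were 6.93 ± 0.70 (SD, n = 3) with PBS and 5.61 ± 0.66 (SD, n = 3) with Epi. The log2 difference of -1.31 is a 2.49-fold lower level. The Epi mean and the values of Epi replicates 1 and 3 lie under 5.69, the 30th percentile of all gene means, below which a gene is called dim here, so the size of the fold is uncertain. With a mean of 6.27 over all 6 arrays ARG2 is not dim only through its PBS values. ARG2 stands on the study's own list of genes altered on these arrays and was chosen with that known, so its difference is a description and no test is given. Among all 18132 genes, 15, ARG2 included, had a difference as low or lower.

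Each Epi tumor was set here beside the PBS tumor of the same replicate number. The labels do not say what a number stands for, so these pairs are an assumption. ARG2 was lower in the Epi tumor of all 3 pairs. The differences were -0.88, -1.27 and -1.79 in replicates 1 to 3. The same direction in all 3 pairs was common on these arrays, with 13.2% of all genes lower and 5.71% higher in every pair. A second, separate probeset of ARG2 read 6.33, 7.63 and 6.66 with PBS and 5.24, 6.23 and 5.20 with Epi. Here every Epi array lay below every PBS array, by a mean of -1.32, and the pair differences were -1.09, -1.40 and -1.47. Both probesets thus gave nearly the same mean difference. In RNA pooled over many cells, fewer cells that carry a transcript and less of it per cell cannot be told apart.

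**Figure D1:**
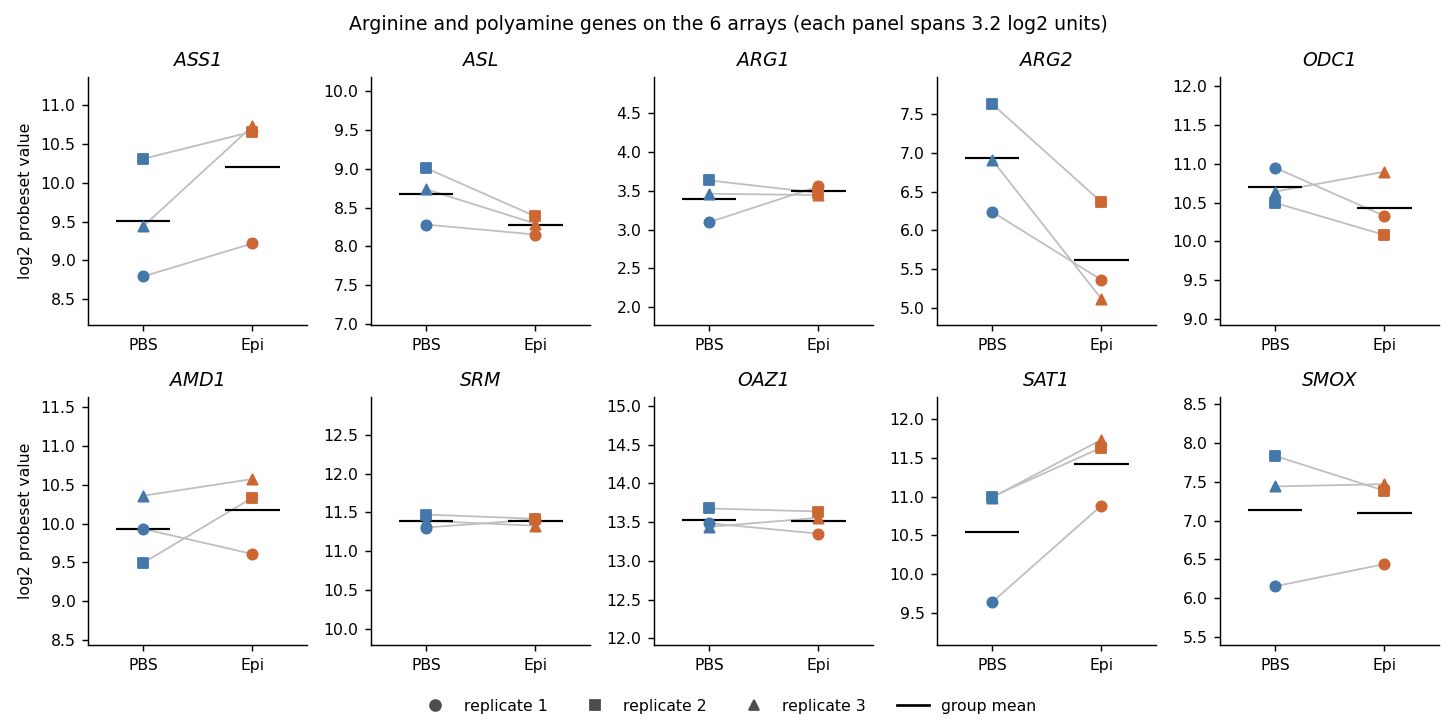
Log2 probeset values (vertical axes, each spanning 3.2 log2 units) of the 10 genes in PBS and Epi tumors, 3 arrays each. Grey lines join tumors of the same replicate number and black bars are group means. ARG2 is lower at the Epi end of all 3 lines, SAT1 and ASS1 are higher there, and the means of SRM and OAZ1 differ by at most -0.02.

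ARG1 was too dim for its difference to be read. Its only probeset read 3.09, 3.63 and 3.46 with PBS and 3.56, 3.47 and 3.44 with Epi. All 6 values lie far under the limit of 5.69. Of 6 hepatocyte markers 3 were dim, namely ALB, at 4.05 or lower on every array, SERPINA1 and HP, while APOA1, TTR and CPS1 were not. Of 8 macrophage markers, 4 were dim (CD163, CD14, MRC1 and ITGAM), and of 6 neutrophil markers, S100A9 and FCGR3B were. The summed signal of the macrophage list was 9.0 to 9.95 with PBS and 9.14 to 9.40 with Epi (log2), and that of the neutrophil list 8.54 to 8.94 and 8.54 to 9.0. The ranges of both lists overlapped between the groups. The summed signal of 6 basal/mesenchymal markers of MDA-MB-231 was 14.99 to 15.15 with PBS and 14.65 to 14.93 with Epi. Those ranges did not overlap. The part of macrophages, neutrophils or the share of tumor cells in the difference of ARG2 was not tested. The probes are of human design, and how far transcripts of the mouse host bind them was not tested.

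The 2 arrays of replicate 1 were unlike the other 4. Over all genes their Pearson correlation was 0.982, against at most 0.962 with any other array, and pairs of the other 4 reached at least 0.972. Principal component 1 of the 6 arrays held 65.8% of the variance. Medians over all probesets were also lower on the replicate 1 arrays, at 5.98 (PBS) and 6.05 (Epi) against 6.37 to 6.42 on the other 4. The 10 genes took part in the difference of the replicate 1 arrays unequally, each read by its brightest probeset. The mean of the replicate 1 arrays minus that of the other 4 was -1.28 for ASS1, -1.24 for SMOX, -1.08 for SAT1 and -0.71 for ARG2, and 0.11 for ODC1 and -0.05 for SRM. In limma, a linear model for each gene with variances moderated across genes, no gene passed an adjusted p of 0.05 without a block for the replicate number (0% of 18132 tested, and 241 at an unadjusted p under 0.05). With the block 122 genes passed, or 0.673%, of which those lower in Epi were 0.32%. Values of both fits are therefore given.

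Of the 9 genes other than ARG2, none passed the adjusted threshold, with or without the block. None of the 10 had groups that did not overlap on its brightest probeset, against 3.2% of all genes. ARG2 and ASL were lower, and SAT1 and ASS1 higher, in all 3 pairs. The remaining 6 genes changed sign between pairs.

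SAT1, the acetyltransferase that starts polyamine breakdown, had the highest difference of the 10. It read 9.64, 11.00 and 10.99 with PBS and 10.88, 11.63 and 11.73 with Epi. The groups overlapped, since Epi replicate 1 lay under PBS replicates 2 and 3. Within pairs the Epi tumor was higher by 1.25, 0.63 and 0.74. The difference of the means was 0.88, or 1.83-fold, with a 95% interval of -0.08 to 1.83 without the block (adjusted p = 1.00 from limma) and 0.43 to 1.32 with it (adjusted p = 0.0837). At an unadjusted p of 7.25e-04 with the block, it missed the threshold after adjustment. Differences as high or higher were seen in 103 of 18132 genes, SAT1 included.

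The other 2 probesets of SAT1 gave 0.71 and 0.61, and all 3 were higher in Epi in each pair. They read replicate 1 very differently. The second probeset stood at 6.97 and 8.0 on the replicate 1 arrays and at 9.70 to 10.36 on the other 4, while the brightest stood at 9.64 and 10.88 there and at 10.99 to 11.73 elsewhere. On the 4 arrays of replicates 2 and 3 alone the brightest probeset differed by 0.69 (95% interval 0.32 to 1.06 with the block, adjusted p = 0.101 from limma).

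SMOX, the spermine oxidase, had nearly equal group means. It read 6.15, 7.84 and 7.44 with PBS and 6.44, 7.39 and 7.47 with Epi. On this brightest probeset both replicate 1 arrays were low and the other 4 lay close together in both groups. A dimmer probeset had its highest value, 6.00, on the Epi replicate 1 array. The difference was -0.05, with a 95% interval of -0.50 to 0.41 with the block and of -1.11 to 1.02 without it. Its 3 other probesets gave 0.02 to 0.14. All 4 were higher in Epi in pair 1 and lower in pair 2.

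The enzymes that make arginine from citrulline had differences of opposite sign, and neither passed the threshold. ASS1, argininosuccinate synthase, read 8.79, 10.31 and 9.44 with PBS and 9.22, 10.66 and 10.73 with Epi. It was higher in Epi by 0.43, 0.35 and 1.29 in pairs 1 to 3. Pair 3 thus carried most of the mean difference of 0.69 (1.61-fold), and without that pair the value was 0.39. The 95% interval was 0.21 to 1.17 with the block (adjusted p = 0.364 from limma) and -0.46 to 1.84 without it. Its second probeset gave 0.67. RefSeq lists 14 ASS1 pseudogenes, and the names of both probesets (ending in s_at and x_at) mark probes that can match other transcripts, so the level of ASS1 is uncertain. The brightest probesets of ARG2 and SAT1 also end in s_at, and those of AMD1, OAZ1 and ASL in x_at. RefSeq lists 1 pseudogene each for ARG2, OAZ1 and ASL, 3 for SRM and none for SAT1, and the second ARG2 probeset ends in plain _at.

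ASL, argininosuccinate lyase, read 8.28, 9.01 and 8.74 with PBS and 8.15, 8.39 and 8.29 with Epi. The Epi tumors were close together (SD 0.12, n = 3) and the PBS tumors spread more widely (SD 0.37, n = 3). The Epi tumor was lower by -0.13, -0.62 and -0.45 in pairs 1 to 3, with a mean of -0.40 and a 95% interval of -0.83 to 0.04 with the block (adjusted p = 1.00 from limma). Of its 5 probesets, 4 were lower in every pair, with means of -0.47 to -0.29. The dimmest, at a mean of 5.59, gave 0.14 and behaved unlike the others, with its highest values on the replicate 1 arrays.

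**Figure D2:**
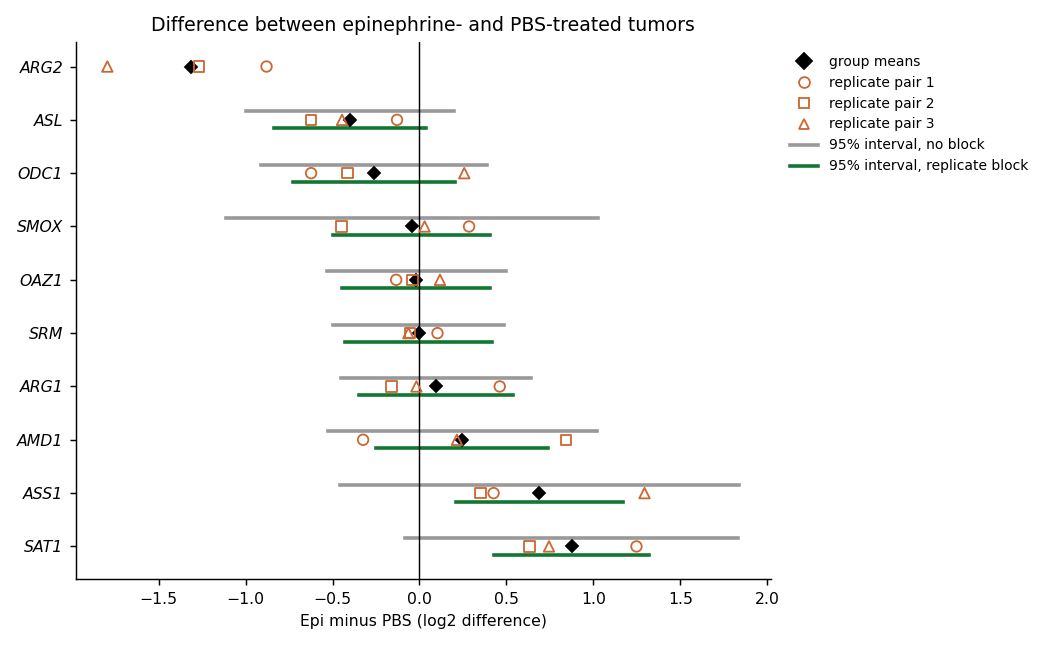
Epi minus PBS log2 differences (horizontal axis) of the 10 genes, sorted, with the group means as diamonds and the 3 replicate pairs as open symbols. Grey and green bars are 95% intervals from limma without and with the replicate block, left out for ARG2, which is given as a description. With the block only the intervals of SAT1 and ASS1 lie clear of 0 before adjustment over all genes.

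None of the 3 enzymes of polyamine synthesis had the same direction in all pairs. ODC1, which catalyzes the first committed step, read 10.95, 10.50 and 10.64 with PBS and 10.33, 10.08 and 10.90 with Epi. It was lower in Epi in pairs 1 and 2 and higher in pair 3 (0.26). The mean difference was -0.26, with a 95% interval of -0.73 to 0.21 with the block. ODC1 had a single probeset.

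AMD1, the S-adenosylmethionine decarboxylase, read 9.93, 9.49 and 10.36 with PBS and 9.61, 10.33 and 10.57 with Epi. Its pair differences were -0.32, 0.84 and 0.22. All 6 of its probesets were lower in Epi in pair 1 and higher in pairs 2 and 3, with means of 0.24 to 0.38. These probesets read 1 transcript family in the same RNA and are not replicates of the treatment. The 95% interval of the brightest was -0.25 to 0.74 with the block, and RefSeq lists 4 AMD1 pseudogenes.

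SRM, spermidine synthase, and OAZ1, antizyme, were the steadiest of the 10 on their brightest probesets. SRM read 11.30, 11.47 and 11.39 with PBS and 11.41, 11.42 and 11.33 with Epi, a difference of -0.0047 (95% interval -0.43 to 0.42 with the block). OAZ1 read 13.48, 13.68 and 13.44 with PBS and 13.35, 13.64 and 13.56 with Epi, a difference of -0.02 (95% interval -0.44 to 0.41 with the block). Neither gene had the same direction in all pairs. The other 5 probesets of OAZ1 gave -0.19 to 0.08, but some spread more over the arrays, the widest from 11.70 to 12.98.

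**Figure D3:**
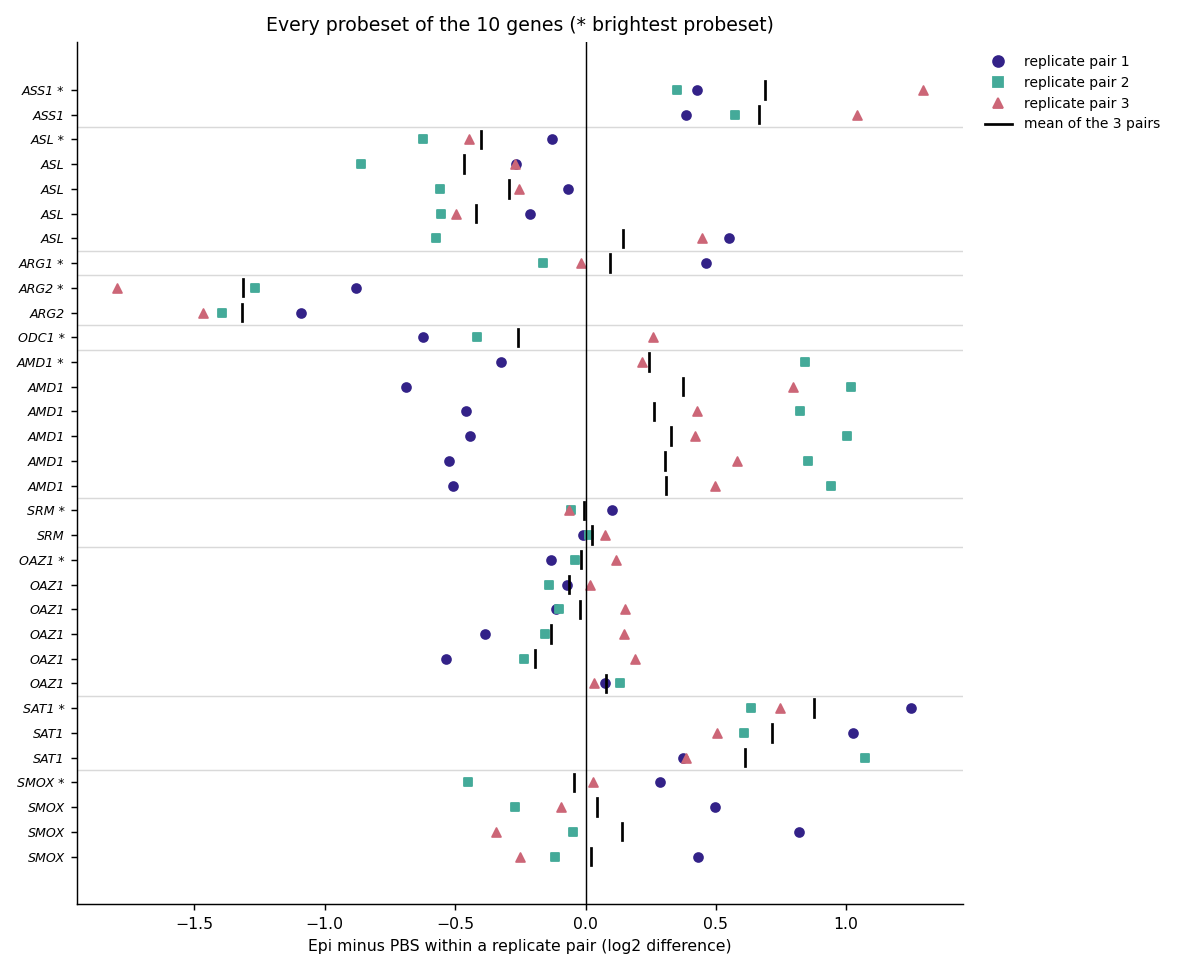
Epi minus PBS log2 differences within each replicate pair (horizontal axis) for all 32 probesets of the 10 genes, grouped by gene, with the brightest probeset starred and black ticks at the mean of the 3 pairs. Both ARG2 probesets lie left of 0 and all SAT1 and ASS1 probesets right of 0 in every pair, while the 6 AMD1 probesets part pair 1 from pairs 2 and 3.

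Beyond the 10 genes, 51 further genes of 9 lists covering arginine and polyamine metabolism were looked up, and 49 were measured. With the block 1 of these 49 passed in limma, lower in Epi, and none higher, beside 0.673% of all genes in either direction and 0.32% lower. Without the block none passed. Their median difference was 0.00033, beside -0.02 for all genes. The groups did not overlap for 2 of the 49, NAGS and SLC7A6, a transporter of basic and neutral amino acids, beside 3.2% of all genes.

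The gene that passed was NAGS, whose product makes N-acetylglutamate, the activator of the first enzyme of the urea cycle. NAGS read 8.38, 8.96 and 8.20 with PBS and 7.16, 7.62 and 7.69 with Epi. Every Epi array lay under every PBS array, and the pair differences were -1.22, -1.34 and -0.51. The difference of -1.02, or 2.03-fold, had an adjusted p = 0.0418 from limma with the block and 1.00 without it. Its other 2 probesets gave -0.36 and -0.39, and the mean of the 3 gave -0.59 (adjusted p = 0.321 with the block). Among 10 fits that kept the pairs or set apart or left out the replicate 1 arrays, NAGS passed in 3. With the block its adjusted p from limma was 0.732 without pair 2 and 0.112 on replicates 2 and 3 alone. Nor did NAGS pass with the block after quantile normalization or median centring.

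Within the urea cycle list, all 10 genes were measured, with differences between -1.31 for ARG2 and 0.69 for ASS1 and a median of -0.0026. In every pair 2 were higher and 4 lower, beside 5.71% and 13.2% of all genes. The 4 lower include ARG2, which was chosen with its change known, and OTC, which was dim. CPS1, the first enzyme of the cycle, was among those higher, by 0.35, 0.35 and 0.46, but its mean of 0.39 did not pass (95% interval -0.03 to 0.81 with the block), and its 2 dimmer probesets gave -0.10 and 0.01. No other list had a gene past the threshold. The medians of the other lists ran from -0.08 for ornithine to proline and glutamate to 0.18 for antizymes and their inhibitors. The 8 genes for other uses of arginine, nitric oxide synthases included, lay between -0.19 and 0.10. The 4 genes of hypusine, the spermidine-derived residue of eIF5A, lay between -0.09 and 0.24.

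Among the brighter pathway genes the lowest differences after NAGS were those of SLC7A1, the main arginine importer of many cells (-0.41), and PYCR1, an enzyme of proline synthesis (-0.37). The highest were those of ATP13A3, a polyamine transporter (0.50), MAT2A, which makes S-adenosylmethionine (0.43), and CPS1. None of these passed.

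**Figure D4:**
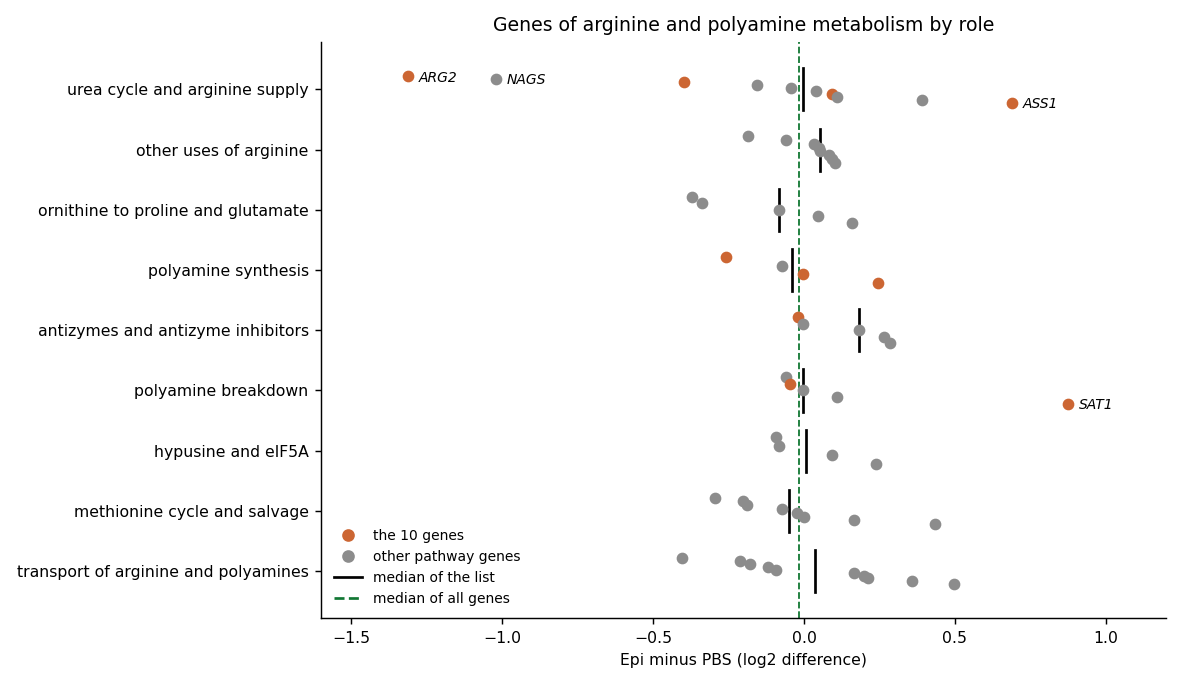
Epi minus PBS log2 differences (horizontal axis) of the measured genes in 9 lists by role, with the 10 genes in orange, the 49 others in grey, list medians as black bars and the median of all genes (-0.02) as a dashed line. ARG2 and NAGS lie at -1.31 and -1.02, SAT1 and ASS1 at 0.88 and 0.69, and the other genes between -0.41 and 0.50.

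Over the 6 arrays, the gene of the 10 most like ARG2 was ASL, with a Pearson correlation of 0.91, and the others ranged from -0.35 for AMD1 to 0.60 for SRM. Among 3920 genes that were not dim and had an SD over the arrays of at least 0.5 times that of ARG2, those with the highest correlation were DLGAP4 (0.98), HMGA1 (0.98), DUSP5 (0.96), LAMB3 (0.95) and LCP1 (0.93). HMGA1 encodes a chromatin protein, DUSP5 a phosphatase of ERK, LAMB3 a laminin chain and LCP1 an actin-bundling protein. All 5 were lower in Epi in every pair, with mean differences of -0.65 for DLGAP4 to -1.81 for LCP1. That shared direction is favored by picking them for likeness to ARG2 on these same arrays. HMGA1, DUSP5, LAMB3 and LCP1 stand, like ARG2, on the study's list of altered genes. The 6 points share the arrays and the low replicate 1 values, and these correlations are a description.

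Some settings, such as the block or the filter on dim genes, change the error of a difference and not its value. Under those that can change the value (array weights, normalization, the mean of probesets, and arrays or pairs left out), the difference of ARG2 ran from -1.69 without Epi replicate 2 to -0.76 with array weights. It was -0.96 without PBS replicate 2, whose value was the highest of the 6. On replicates 2 and 3 alone it was -1.53. The ranges were 0.42 to 1.14 for SAT1, 0.33 to 1.19 for ASS1, -0.60 to -0.23 for ASL and -0.52 to -0.08 for ODC1. Those of SRM (-0.06 to 0.04), OAZ1 (-0.09 to 0.18), AMD1 (-0.05 to 0.53), SMOX (-0.54 to 0.30) and ARG1 (-0.09 to 0.22) held both signs.

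**Figure D5:**
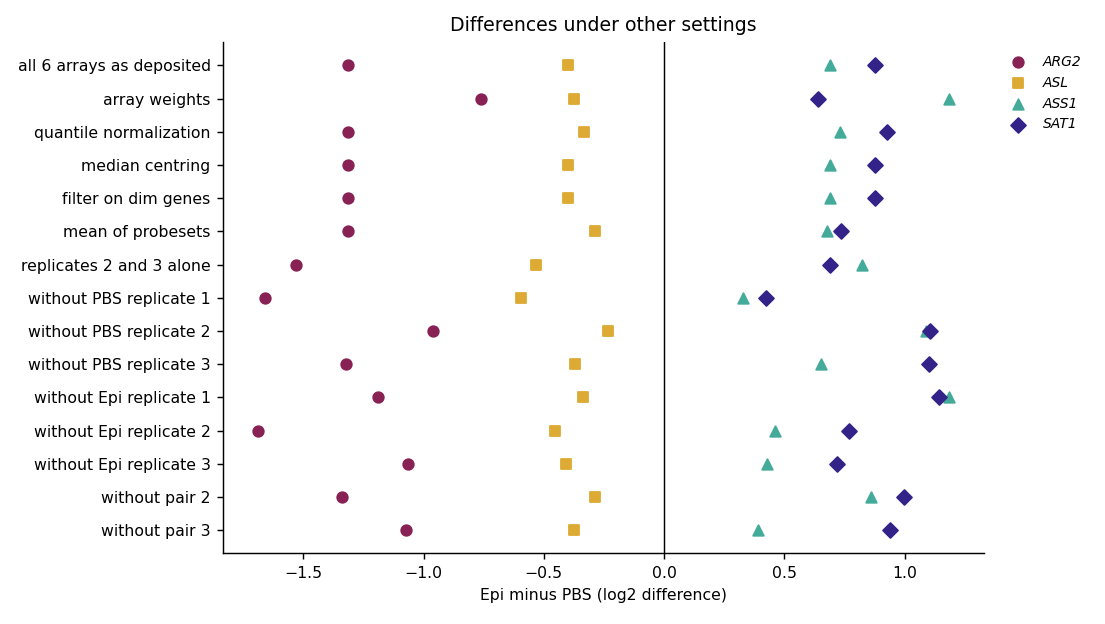
Epi minus PBS log2 differences (horizontal axis) of ARG2, ASL, ASS1 and SAT1 with all 6 arrays and under other settings or with arrays or pairs left out (rows). ARG2 stays between -1.69 and -0.76, ASL below 0, and ASS1 and SAT1 above 0.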

How the data were processed

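RNA from tumor cells was measured on 6 Affymetrix Human PrimeView arrays. The table deposited by the authors holds log2 values of 49395 probesets. RMA and Affymetrix Expression Console are named, with no version, in the submitters' processing notes, which do not state what arrays were normalized together. The 102 control probesets were left out. GEO's platform annotation gave 44988 probesets 1 gene, 1832 several and 2473 none, and only the first were used.

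The comparison of Epi and PBS used limma 3.58.1 under R 4.3.3, two-sided, with Benjamini-Hochberg adjustment over all 18132 genes and a threshold of 0.05. The methods name no test for the arrays. Differences are Epi minus PBS on the log2 scale. The members and lists were chosen with earlier results of these data known. Named genes were the members, pathway genes past the threshold in either fit, the 3 highest and 3 lowest brighter pathway genes, and the 5 most like ARG2.

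The replicate numbers come from the labels, which do not say what a number stands for. The deviations of same-numbered arrays from the group means correlated at 0.630, 0.627 and 0.453, so they were treated as pairs in the fit with the replicate block. PBS replicate 3 correlated more with Epi replicate 2 (0.523) than with Epi replicate 3 (0.453). The check also used the same values as the fit, so it does not settle the pairing.

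Alternatives were the block, a term that sets the replicate 1 arrays apart, replicates 2 and 3 alone, each array left out, the mean of probesets, leaving out dim genes (under the 30th percentile), median centring, quantile normalization, array weights, trend and robust estimation, and Student's t-test. A further 6 combinations with the block were added after the data were seen. The fits were tested on simulated data in which arrays of the same number shared an effect, so that test assumed the pairing. There the fit without the block recovered fewer of the changed genes than the fit with it, which the shared effect built into those data favored. Finding no gene past the threshold without the block does not show that none changed. Promoter sequences are RefSeq's, and motifs were searched on both strands. No depth exists for arrays, whose number sets the precision.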

Additional observations from a re-analysis of the deposited data

How the results depend on the processing

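Of the 18132 genes, the number past the adjusted threshold was 0 without the replicate block and stayed 0 with Student's t-test, trend and robust estimation, quantile normalization, median centring, the filter on dim genes, the mean of probesets and each array left out. It was 122 with the replicate block, 40 with the replicate 1 arrays set apart, 16 on replicates 2 and 3 alone and 162 there with the block. With array weights, whose estimation stopped before it converged, 2352 passed (13.0%), and with them 4 of the 9 genes other than ARG2 and 13 of the 49 other pathway genes. With single arrays left out, or pair 2 or 3 with the block, the count ran from 0 to 129 genes, and for the pathway genes from 0 to 1. Leaving out pair 1 with the block gives the 162 genes above. With the block it was 9 after quantile normalization, 20 after median centring, 81 with the mean of probesets and 155 with the filter on dim genes, where 1 pathway gene, NAGS, passed as it did on all arrays with the block. At an unadjusted p under 0.05, Student's t-test gave 252 genes. In every alternative but array weights none of the 9 genes passed.

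Background correction was not varied, since no scanner files were used here. Dim genes such as ARG1 carry little signal over background, and a difference of theirs is not informative. The causes of these shifts between settings were not tested.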

Other observations

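Of the 3 pathway genes beyond the 10 with the highest differences, MAT2A and ATP13A3 had the signs of AMD1 across the pairs. MAT2A, which makes the S-adenosylmethionine that AMD1 decarboxylates, differed by -0.31, 1.30 and 0.31 in pairs 1 to 3, and the polyamine transporter gene ATP13A3 by -0.50, 0.80 and 1.19. On replicates 2 and 3 alone with the block their differences were 0.81 and 1.00, and that of AMD1 was 0.53. That fit leaves out pair 1, in which MAT2A, ATP13A3 and AMD1 were lower in Epi. Their larger values there follow from leaving it out and are a description. None passed. These signs were not particular to MAT2A, ATP13A3 and AMD1. Further pathway genes had them too, such as SLC18B1 (-0.51, 0.48 and 0.52), ENOPH1 (-0.70, 0.43 and 0.05) and OAT (-0.25, 0.34 and 0.38). Others differed, such as ATP13A2 (0.40, -0.53 and -0.22) and SLC7A1 (-0.86, -0.29 and -0.06). The share of all genes with these signs was not counted.

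Of the measured genes with a promoter window, 434 held 1 copy of TGACGTCA and 14 held 2 or more, ARG2 included. The other 13 had a median difference of -0.11 and none passed with the block. Of these 13, 3 lay above 0, beside 208 of the 434 genes with 1 copy and 6371 of the 13977 with no copy. With 1 copy the median was -0.01, and DUSP1 and H2BC12 passed higher and LTBP1 lower with the block (0.691% of these genes, beside 0.63% of the 13977 genes with no copy).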
